A study of Mus musculus with 3 samples.

Results

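The ATP-binding cassette (ABC) transporters and the organic ion carriers of the Slco and Slc22a families were followed in the hippocampus of adult male mice born to older or to young mothers. A gene belonged to the set if a probe on the array named it as a member of Abca to Abcg, Slco or Slc22a, apart from 10 genes that were left out. This gave 81 genes with 107 probes, out of 22469 named genes and 39429 probes on the array. The rule itself reads gene names only. Of the 81 genes, 53 were measured, with 67 probes that gave a signal well above background in at least 1 dye on all 3 arrays.

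The mothers were bred at 15 to 18 months (advanced maternal age, AMA) or at 3 months (young maternal age, YMA), and all fathers were aged 3 months. The sons were killed by cervical dislocation at postnatal day 120, and the labels name no strain, genotype or other treatment. Each RNA sample was a pool from the hippocampi of 3 males of 1 group, with 3 pools a group, and whether animals of a pool were littermates is not stated. On each of the 3 two-colour arrays an AMA pool carried the dye Cy3 and a YMA pool the dye Cy5, always in this orientation, so the dye and the mothers' age cannot be told apart. All values are log2 ratios of AMA over YMA: 0 is no difference, and a negative value is a lower signal in sons of older mothers. The question is which hippocampal transcripts differ with the mother's age.

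ABC proteins use the energy of ATP to move lipids, drugs, conjugates or peptides across a membrane, mostly outwards. The Slco proteins, or organic anion transporting polypeptides, carry bile salts, prostaglandins, thyroid hormones and steroid conjugates, and the Slc22a proteins carry organic cations, organic anions and the zwitterions carnitine and ergothioneine. In the brain, several of them sit in the walls of capillaries, in the choroid plexus and in the meninges, where they limit the entry of drugs and clear metabolites from the cerebrospinal fluid. Others serve every cell, in mitochondria, peroxisomes and lysosomes.

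The results turn on a few probes of 60 bases. The sequences shown are the array's own, 5′ to 3′, with positions in the mm9 build (NCBI37) that the array files name. They are the probes of 2 genes with lower ratios, and a pair of probes for Abcc5 that gave different ratios. The Abca17 probe lies at chr17:24404496-24404555 (minus strand) and that of Abcb4 at chr5:8959108-8959167 (plus strand). The Abcc5 probe with the higher ratio lies at chr16:20392789-20392848 and that with the lower at chr16:20404654-20404713, both on the minus strand. Whether a probe lies in an exon's coding or untranslated stretch was not analysed here.
Abca17: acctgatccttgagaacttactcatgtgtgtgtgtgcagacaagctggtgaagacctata
Abcb4: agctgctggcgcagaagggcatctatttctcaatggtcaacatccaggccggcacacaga
Abcc5, higher ratio: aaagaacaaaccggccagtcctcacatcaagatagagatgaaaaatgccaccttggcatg
Abcc5, lower ratio: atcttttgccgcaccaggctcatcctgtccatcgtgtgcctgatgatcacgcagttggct

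The stretch of 250 bases before the start is shown for Abcc4, Slc22a8 and Slco2a1, 3 genes that fell and whose proteins carry organic anions, because these starts differ in base composition. The sequences come from RefSeq (GRCm38.p6), 5′ to 3′ on the gene's strand, at chr14:118706220-118706469 (minus strand), chr19:8592932-8593181 (plus strand) and chr9:103008237-103008486 (plus strand). Capitals mark the GC box GGGCGG or its reverse CCGCCC, and the TATA box TATAAA or its reverse TTTATA. Neither motif overlaps the other.
Abcc4: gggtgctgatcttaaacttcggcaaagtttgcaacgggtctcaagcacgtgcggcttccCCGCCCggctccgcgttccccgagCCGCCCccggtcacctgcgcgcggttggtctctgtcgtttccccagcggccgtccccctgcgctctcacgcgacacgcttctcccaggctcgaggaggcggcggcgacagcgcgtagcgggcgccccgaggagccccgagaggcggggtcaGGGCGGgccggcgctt
Slc22a8: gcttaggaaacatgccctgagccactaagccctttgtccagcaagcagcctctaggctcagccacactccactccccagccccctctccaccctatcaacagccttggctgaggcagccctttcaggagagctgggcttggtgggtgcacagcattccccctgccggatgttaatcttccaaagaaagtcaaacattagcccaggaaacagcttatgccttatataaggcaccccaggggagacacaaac
Slco2a1: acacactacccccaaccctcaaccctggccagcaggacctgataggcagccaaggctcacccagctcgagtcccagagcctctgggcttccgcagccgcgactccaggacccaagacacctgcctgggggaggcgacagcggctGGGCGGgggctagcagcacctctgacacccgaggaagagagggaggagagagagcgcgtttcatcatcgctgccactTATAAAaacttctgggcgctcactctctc
The Abcc4 stretch holds 35 CG pairs and that of Slco2a1 12, while that of Slc22a8 holds 1 and neither motif. RefSeq promoter entries (250 bases before the start and 50 after) were found for 66 of the 81 genes. A GC box on either strand stood in 59% of the 39 measured members and in 11.1% of the 27 not measured. Over the whole array the shares were 57.5% of 13190 measured genes and 17.3% of 4443 genes not measured, so the members' split lies near that of all genes. The median number of CG pairs was 21 in measured members and 4 in the others, against 18 and 3 over the array. TATAAA stood in 12.8% of measured members and 14.8% of the others, against 8.95% and 23.6%.

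Which transporters gave a signal sets what can be said. Of the 107 probes, 57 were well above background in both dyes on all 3 arrays, and 10 on all 3 only in Cy5, the young-mother channel; of these, 7 were above background in Cy3 on no array. A further 35 were above background on no array in either dye. Over all 39429 probes, 24355 were above background in both dyes on all 3 arrays. Another 1448 were so in Cy5 on all 3 arrays and in Cy3 on none, and 1728 in Cy5 on all 3 and in Cy3 on some. Only 98 were so in Cy3 but not in Cy5 on all 3 arrays, and 8981 were above background in neither dye on any array. The ABC genes with no measured probe were Abca12 to Abca16, Abcb5, Abcb11 (the bile salt export pump), Abcc2, Abcc12, Abcg3, and Abcg5 and Abcg8 (which export sterols into bile and gut as a pair). Among the ion carriers, those not measured were Slco1a1, Slco1a6, Slco1b2, Slco5a1, Slco6b1, Slco6c1, Slco6d1, Slc22a12 (the urate carrier of the kidney), Slc22a14, Slc22a16, Slc22a19, Slc22a20, Slc22a22, Slc22a26, Slc22a27 and Slc22a29. A signal not above background is no proof that the transcript is missing. Every gene of the set in Abcd, Abce and Abcf was measured.

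Median signals over background were 57 to 62 intensity units in Cy3 and 150.5 to 162.5 in Cy5, on arrays of 44397 spots with 0 saturated. With only 3 arrays, the precision is set by their number. Markers of tissue next to the hippocampus also differed between the channels. The median log2 ratio of 15 choroid plexus markers (Ttr, Kl, Folr1 and others) was -0.66, -1.89 and -0.33 on arrays 1, 2 and 3. Of the 15, 3 passed the test, all lower (Slc4a5, Sostdc1 and Kcnj13), while Ttr, Kl and Folr1 did not. Kcne2 went the other way, with ratios of -0.55, 0.25 and 3.20, and the other 14 means lay below 0. The summed signal of the 15 ran from 18360 to 103400 in Cy3 and from 114600 to 158200 in Cy5, and all 15 were measured. Of 12 leptomeningeal fibroblast markers 7 fell, with medians of -0.38, -0.51 and -0.21, and sums of 6992 to 10950 in Cy3 and 9489 to 11450 in Cy5. The genes of neurons that define the tissue (Prox1, Wfs1, Neurod6, Camk2a and 4 others) were all measured, and 2 of the 8 fell. Of all measured genes, 11.1% fell and 6.2% rose.

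Across the transporters, 6 of the 53 measured genes fell in sons of older mothers and 1 rose (limma, adjusted p under 0.05 by Benjamini-Hochberg over 27629 probes, with each gene read from its brightest measured probe). The 6 are Slc22a8, Abca17, Abcc4, Slc22a2, Abcb4 and Slco2a1, and the gene that rose is Slc22a13b-ps, an annotated pseudogene. The share that fell, 11.3%, lies near the 11.1% of all 16782 measured genes that fell, and the share that rose, 1.89%, lies below the 6.2% of all genes that rose. The median of the 53 means was -0.05, beside -0.03 for all genes, and the median size of a mean was 0.094, beside 0.109. The 3 arrays had the same sign in 31 of the 53, or 58.5%, against 59.1% of all genes. Over single probes, 1 of 67 rose and 6 fell, or 1.49% and 8.96%, against 6.96% and 9.65% of all measured probes. These shares were not tested against each other. Abca17 and Slc22a2 entered the test only through the young-mother channel, where they are the brighter, so their calls are given as a description. With both dyes required on all arrays neither was tested, and 5 of 45 genes fell, Abcg2 among them. Under that filter 11.2% of all genes fell. All 7 calls rest on the number of arrays. Without array 1 Slc22a2 and Slco2a1 no longer passed, while Abcc6, Abcc8 and Slco4a1 passed as lower. Abcc6 too entered the test only through the young-mother channel, so its call there is given as a description. Without array 2 Abca17 alone passed, and without array 3 none of the 7 did (48 genes higher and 19 lower over the whole array). The means of all 7 kept their sign in each of these fits, which leave 1 residual degree of freedom. Where the arrays were centred on their median in place of a loess curve, the median of all genes moved to -0.44, and Abca17 and Slc22a2 turned positive. In all, 13 of the genes given array by array below changed sign under it, so the signs given hold for the loess values.

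**Figure D1:**
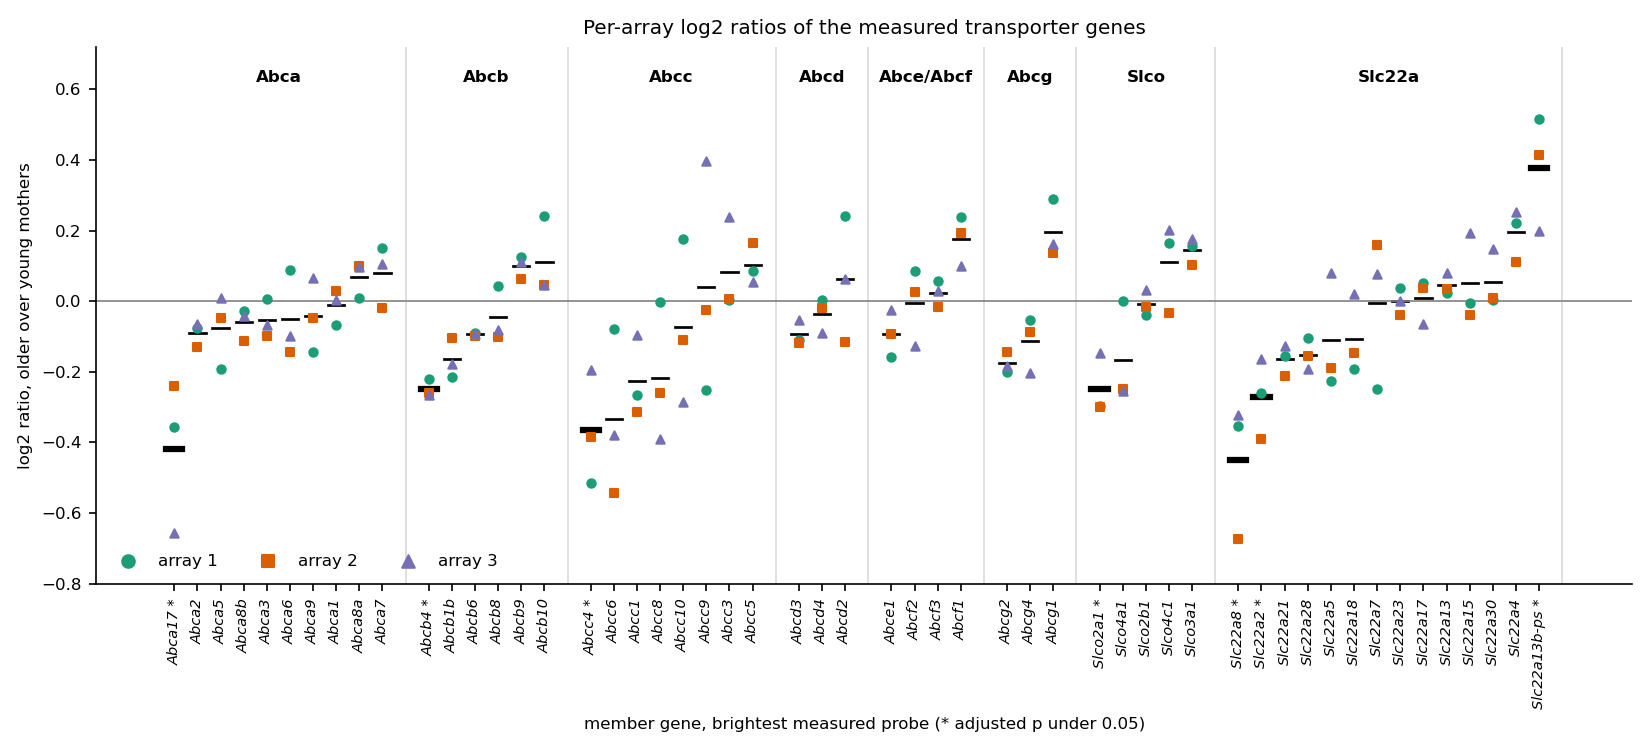
The log2 ratio of AMA over YMA on each of 3 arrays (points) and their mean (bar) is plotted for the 53 measured transporter genes, grouped by family; thick bars and stars mark genes with a limma adjusted p under 0.05. The median of the 53 means is -0.05, the lowest is Slc22a8 at -0.45 and the highest Slc22a13b-ps at 0.38; Abca17 and Slc22a2 turn positive when arrays are centred on the median instead of by loess.

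Among the Slc22a carriers, 2 of 14 measured genes fell and 1 rose, and those that fell encode a carrier of organic anions and one of organic cations. Slc22a8, an organic anion transporter of the choroid plexus and brain capillaries, had ratios of -0.35, -0.67 and -0.32 on arrays 1, 2 and 3. Array 2 was the lowest and all 3 lay below 0. Its mean was -0.45 ± 0.20 (SD, n = 3 arrays), or 1.37-fold lower, with a limma adjusted p of 0.0264. Slc22a2, a polyspecific organic cation transporter, had ratios of -0.26, -0.39 and -0.16, again lowest on array 2. It fell by 0.27 ± 0.11 (limma adjusted p = 0.0381), with a Cy3 signal above background on 2 of 3 arrays, and turned to 0.048 with median centring. Its probe thus read the older-mother channel close to background. The probe entered the test only through Cy5, the young-mother channel, where it is brighter, so this call is given as a description. Slc22a13b-ps rose, with ratios of 0.52, 0.41 and 0.20, highest on array 1 and all above 0. The mean was 0.38 ± 0.16, or 1.3-fold, with a limma adjusted p of 0.0288. Slc22a13, its coding relative on the same chromosome, 9, had a mean of 0.05 ± 0.03 and did not pass (limma adjusted p = 0.491). Whether the pseudogene's probe also binds other transcripts of the family was not tested.

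The carnitine and ergothioneine carriers lie side by side on chromosome 11 and gave ratios of both signs, none past the threshold. Slc22a4, which carries ergothioneine, had ratios of 0.22, 0.11 and 0.25, and a mean of 0.20 ± 0.07 with a limma adjusted p of 0.0548. All 3 arrays lay above 0. Slc22a5, the carnitine transporter of most tissues, had ratios of -0.22, -0.19 and 0.08, a mean of -0.11 ± 0.17. Slc22a21, a further carrier of this cluster known from mice, had ratios of -0.16, -0.21 and -0.13, a mean of -0.16 ± 0.04 with a limma adjusted p of 0.0649. The spread of Slc22a5 crossed 0, while those of its neighbours did not. Slc22a17, known as a receptor for the iron-binding protein lipocalin, had ratios of 0.05, 0.04 and -0.07, a mean of 0.01 ± 0.06. The 95% interval of that mean ran from -0.12 to 0.13. The remaining members did not pass: Slc22a7, Slc22a13, Slc22a15, Slc22a18, Slc22a23, Slc22a28 and Slc22a30, with means from -0.15 (Slc22a28) to 0.05 (Slc22a30). Slc22a7 and Slc22a30 were above background in Cy3 on no array.

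Of the Slco carriers, 5 of 12 were measured and 1 fell. Slco2a1, the prostaglandin transporter that takes these lipids into cells, had ratios of -0.30, -0.30 and -0.15, all below 0 with array 3 nearest to it. It fell by 0.25 ± 0.09, a 1.19-fold lower signal (limma adjusted p = 0.0373). Slco3a1, a widely expressed family member, had ratios of 0.16, 0.10 and 0.18 with its brightest probe, a mean of 0.15 ± 0.04 that did not pass (limma adjusted p = 0.0832). Its other probe had -0.11, -0.03 and -0.04, a mean of -0.06 ± 0.04, so the probes lay on opposite sides of 0 on every array. Slco4a1, a carrier of thyroid hormone, had ratios of 0.0013, -0.25 and -0.25, with a mean of -0.17 ± 0.15. Array 1 stood apart from arrays 2 and 3 there, and without it the mean was -0.25 with a limma adjusted p of 0.0434. Over all settings the limma adjusted p of Slco4a1 ran from 0.00776 to 0.454. The lowest came with median centring, where Slco4a1 lay 0.18 above the median of all genes. Slco2b1, a carrier of steroid sulphates, was read by probes that share 38 bases. The brighter had ratios of -0.04, -0.02 and 0.03 and the other 0.13, 0.23 and 0.19, a mean of 0.18 ± 0.05 with a limma adjusted p of 0.0525. Although most of their bases are common, the second lay above the first by 0.16 to 0.24 on every array. Slco4c1 had a mean of 0.11 ± 0.13.

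The Abcc family had the lowest family median, -0.15 over 8 measured genes, and 1 of the 8 fell. Abcc4, which exports cyclic nucleotides, prostaglandins and anionic drugs, had ratios of -0.52, -0.38 and -0.20, all below 0. Its mean was -0.36 ± 0.16, or 1.29-fold lower, with a limma adjusted p of 0.0306. Abcc1, the exporter of glutathione conjugates and leukotrienes, had ratios of -0.27, -0.31 and -0.09, a mean of -0.22 ± 0.12 (limma adjusted p = 0.0563). All 3 arrays were below 0, yet the gene missed the threshold. Abcc6, the gene of pseudoxanthoma elasticum, was above background in Cy3 on no array with its brighter probe, whose ratios were -0.08, -0.54 and -0.38. That probe's mean was -0.33 ± 0.24 (limma adjusted p = 0.062), and the other probe, 1 array above background in Cy3, gave 0.25, 0.12 and 0.02. The Abcc6 probes again lay on opposite sides of 0. Without array 1 the brighter had a mean of -0.46 with a limma adjusted p of 0.0212 (over all settings 0.0179 to 0.678). Both Abcc6 probes entered the test only through Cy5, the young-mother channel, so these p-values are given as a description. Abcc10 had a mean of -0.07 ± 0.23 and Abcc3 of 0.08 ± 0.13, and neither passed.

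Abcc8 and Abcc9 encode the sulphonylurea receptors, the regulatory subunits of ATP-sensitive potassium channels. Abcc8 had ratios of -0.0015, -0.26 and -0.39, a mean of -0.22 ± 0.20 (limma adjusted p = 0.117), and a second probe that shares 47 bases had 0.04, -0.24 and -0.28. On both probes array 1 was nearest to 0 while arrays 2 and 3 were lower. Without array 1 the mean was -0.33 with a limma adjusted p of 0.0334. Over all settings the limma adjusted p of Abcc8 ran from 7.21e-05 to 0.342. The lowest came with median centring, where the median of all genes was -0.44 and 69.6% of them were called lower. Abcc9 had ratios of -0.25, -0.03 and 0.40, a mean of 0.04 ± 0.33, the widest spread of all 53 genes. The channel pores that pair with them did not pass: Kcnj8 had a mean of 0.24 ± 0.15 (limma adjusted p = 0.0625) and Kcnj11 of -0.04 ± 0.24. Kcnj8 was above 0 on all arrays (0.14, 0.18 and 0.41).

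In the Abca family, whose members mostly move lipids, 1 of 10 measured genes fell. Abca17 had ratios of -0.36, -0.24 and -0.66, lowest on array 3. Its Cy3 signal was above background on no array, so the size of the difference is uncertain. The measured mean was -0.42 ± 0.22, with a 95% interval from -0.63 to -0.20 and a limma adjusted p of 0.0346. With Cy3 held no lower than the lowest detected Cy3 signal, the fold was 1.32, which is not a strict limit. The probe passed the filter only through the channel where it is brighter, so this call and its p are given as a description. The sign turned to 0.12 with median centring. A further Abca17 probe was above background on no array. In GRCm38 the Abca17 and Abca3 starts face away from each other on chromosome 17, and Abca3, the phospholipid transporter of lung surfactant, had a mean of -0.05 ± 0.05. Abca1, which loads cholesterol onto apolipoproteins, had ratios of -0.07, 0.03 and 0.0034, a mean of -0.01 ± 0.05 with a 95% interval from -0.13 to 0.11. Abca2, an endosomal lipid transporter abundant in oligodendrocytes, had -0.08, -0.13 and -0.06, a mean of -0.09 ± 0.03. Abca7, a phospholipid transporter linked to Alzheimer's disease risk, had 0.15, -0.02 and 0.11, a mean of 0.08 ± 0.09. None of these brain lipid transporters passed the test. Abca5, Abca6, Abca8a, Abca8b and Abca9, which form a cluster on chromosome 11, had means from -0.08 (Abca5) to 0.07 (Abca8a), and Abca6 and Abca8a were above background in Cy3 on no array.

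The Abcg genes showed no call among 3 measured. Abcg1, which moves sterols to lipoproteins in glia and macrophages, had ratios of 0.29, 0.14 and 0.16, a mean of 0.20 ± 0.08 with a limma adjusted p of 0.0582. Abcg2, the multidrug exporter of brain capillaries, had ratios of -0.20, -0.14 and -0.18, a mean of -0.18 ± 0.03 with a limma adjusted p of 0.0532. These neighbours of the threshold were on opposite sides of 0 and each kept 1 sign on all arrays. Abcg4, a sterol exporter of neurons and astrocytes, had ratios of -0.05, -0.09 and -0.20 with its brightest probe, and -0.03, -0.06 and -0.15 with a probe that shares 44 of its bases. The remaining Abcg4 probe elsewhere in the gene had 0.14, 0.10 and 0.02. Its overlapping probes thus ran together and the distant one on the other side of 0.

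Among the Abcb genes, 1 of 6 measured fell. Abcb4, the phosphatidylcholine exporter of bile, had closely spaced ratios of -0.22, -0.26 and -0.27, a mean of -0.25 ± 0.02 (limma adjusted p = 0.0267). A second Abcb4 probe, above background in Cy3 on no array, had 0.02, -0.30 and -0.30, a mean of -0.19 ± 0.19 that did not pass (limma adjusted p = 0.136). So arrays 2 and 3 were low on both probes and array 1 only on the brighter. Averaged over the probes, Abcb4 no longer passed. Abcb1b, which lies beside Abcb4 on chromosome 5 and encodes a form of the drug exporter P-glycoprotein, had ratios of -0.21, -0.10 and -0.18. Its mean was -0.16 ± 0.06 (limma adjusted p = 0.0695), below 0 on all arrays. The mitochondrial members of the set did not pass. Abcb10, which acts in haem synthesis, had 0.24, 0.05 and 0.05, a mean of 0.11 ± 0.11. Abcb8, also mitochondrial, had a mean of -0.05 ± 0.08, Abcb6 of -0.09 ± 0.01 and Abcb9, a lysosomal peptide transporter, of 0.10 ± 0.03.

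No gene of the Abcd, Abce and Abcf families passed. Abcd2, a peroxisomal transporter of fatty acids, had ratios of 0.24, -0.11 and 0.06, a mean of 0.06 ± 0.18. Abcd3, a major peroxisomal membrane protein, had -0.11, -0.12 and -0.05, a mean of -0.09 ± 0.04. All 3 arrays were below 0 for Abcd3, while those of Abcd2 lay on both sides. Abcd4, needed for cobalamin to leave lysosomes, had a mean of -0.04 ± 0.05. Abce1, which splits ribosomes after translation and transports nothing, had -0.16, -0.09 and -0.02, a mean of -0.09 ± 0.07. Abcf1, a translation factor without membrane domains, had 0.24, 0.19 and 0.10, a mean of 0.18 ± 0.07 (limma adjusted p = 0.0659). Abcf1 was above 0 on all arrays, and its second probe had a mean of 0.08 ± 0.13. Abcf2 and Abcf3 had means of -0.0048 ± 0.11 and 0.02 ± 0.04.

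Probes of the same gene did not always run together. Of 11 genes with several measured probes, 5 had means on opposite sides of 0 (Abcc5, Abcc6, Abcg4, Slco2b1 and Slco3a1) and 1 had a call on only 1 probe (Abcb4). Abcc5, an exporter of cyclic nucleotides and acylated amino acids, has 4 measured probes on chromosome 16. The brightest, printed 10 times on each array, had ratios of 0.09, 0.16 and 0.05, a mean of 0.10 ± 0.06. The others had means of 0.24 ± 0.14, -0.02 ± 0.04 and -0.10 ± 0.08. Those with means of 0.24 and -0.02 are the pair of sequences shown. None of the 4 passed the threshold, and whether they read different transcript forms was not tested.

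**Figure D2:**
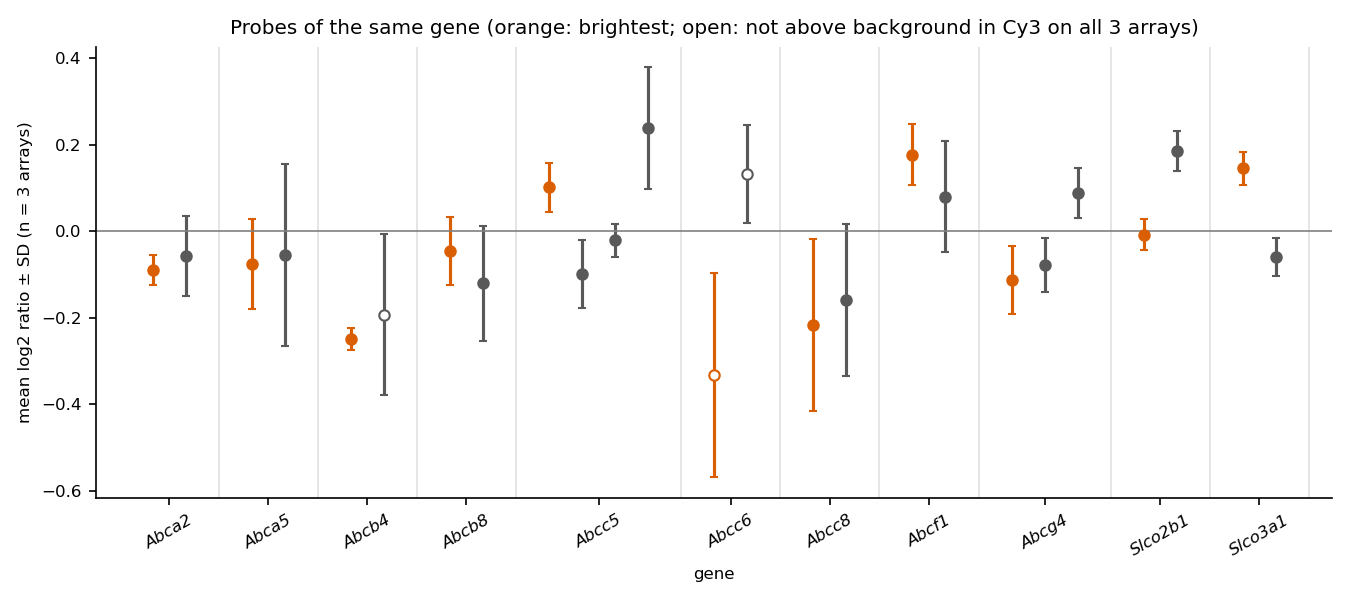
The mean log2 ratio of AMA over YMA with its SD (n = 3 arrays) is plotted for each measured probe of the 11 transporter genes with more than 1. Orange marks the brightest probe and open circles those above background in Cy3 on fewer than 3 arrays; in 5 genes the means lie on both sides of 0, most widely in Abcc6 (-0.33 and 0.13).

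The order of the arrays was set beside that of the cell type markers. Of the 6 transporters that fell, 3 (Slc22a2, Slc22a8 and Slco2a1) had array 2 lowest and array 3 highest, as had the choroid plexus, leptomeningeal and pericyte medians (pericytes -0.16, -0.20 and -0.14). Of all 53 measured members, 11 had this order, called or not, and the share over all measured genes is not given here. The call of Slc22a2 is given as a description only. Abca17 and Abcb4 were lowest on array 3, and Abcc4 on array 1. The choroid plexus median was -0.66 on array 1 and -1.89 on array 2. On the same arrays Slc22a8 had -0.35 and -0.67, Slc22a2 had -0.26 and -0.39, and Slco2a1 had -0.30 on both. The part of any of these cell types in the transporter values was not tested. In bulk tissue fewer cells of a type and less RNA per cell cannot be told apart. Brain endothelium, where several of the transporters are also known, had 2 of 10 markers higher and 2 lower: Mfsd2a 0.82 ± 0.16, Flt1 0.37 ± 0.07, Cldn5 -0.64 ± 0.22 and Itm2a -0.34 ± 0.14. Of 7 pericyte markers, 2 fell. Among 8 microglial markers 1 rose (C1qa) and 1 fell (Cx3cr1). Of 7 astrocyte markers 2 rose (Gjb6 and Gfap), and 3 had means below 0. None of 6 oligodendrocyte markers passed. Of all measured genes, 6.2% rose and 11.1% fell.

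**Figure D3:**
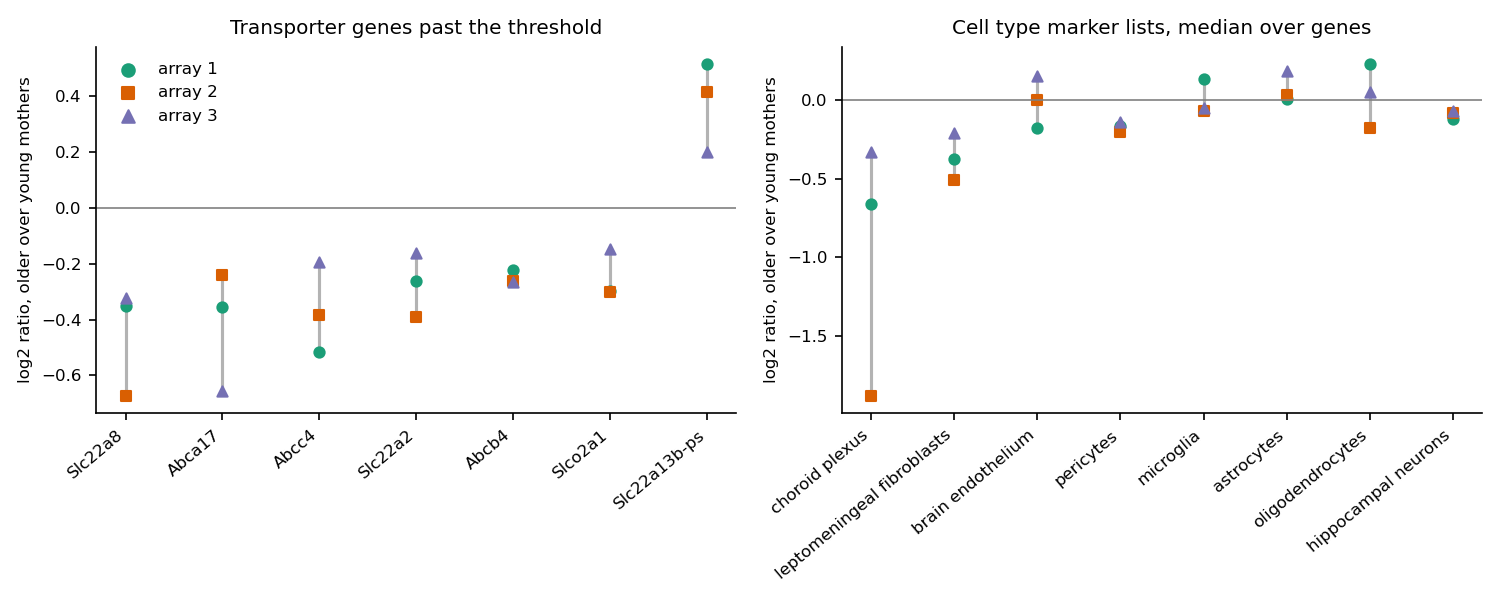
On the left, the log2 ratio of AMA over YMA on each of 3 arrays is plotted for the 7 transporter genes with a limma adjusted p under 0.05; on the right, the median ratio of each cell type marker list on the same arrays. Array 2 is lowest for Slc22a8, Slc22a2 and Slco2a1, and for the choroid plexus, leptomeningeal, pericyte, microglial and oligodendrocyte medians; Abca17 and Slc22a2 turn positive with median centring.

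Counts for other genes of the same pathways are read beside the shares of all measured genes, 6.2% higher and 11.1% lower. Of 12 measured lipid partners of the ABC exporters, 1 fell and none rose: Apoe, the main lipoprotein component of the brain, with a mean of -0.22 ± 0.09 (limma adjusted p = 0.046). Lcat and Srebf1, with means of -0.14 ± 0.04 and 0.14 ± 0.24, did not pass. Among 12 measured nuclear receptors and factors that regulate transporter genes, 2 rose and 1 fell. Nr1i3, the constitutive androstane receptor, rose by 0.22 ± 0.06, Nfe2l2, which drives the oxidative stress response, rose by 0.23 ± 0.07, and Ahr, the receptor for dioxin, fell by 0.24 ± 0.09. Nr1h2 and Nr1h3, the sterol sensors that act on Abca1 and Abcg1, had means of 0.03 ± 0.06 and -0.0047 ± 0.05.

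Of 10 peroxisomal partners of the Abcd proteins, 3 fell: Ehhadh, an enzyme of fatty acid oxidation, at -0.35 ± 0.17, Pex19, which escorts membrane proteins to peroxisomes, at -0.24 ± 0.05, and Pex16 at -0.22 ± 0.09. The Abcd genes themselves had means from -0.09 to 0.06. Of 7 partners in mitochondrial iron and haem handling, 2 fell, Lyrm4 at -0.30 ± 0.05 and Iscu at -0.22 ± 0.07, both part of the iron-sulphur assembly machine. All 7 means lay below 0, as did those of 9702 of all 16782 genes. Of 9 other measured carriers of organic ions and drugs, 1 rose and 1 fell. Slc15a2, a peptide carrier, had ratios of 0.35, 0.84 and 0.73, a mean of 0.64 ± 0.26 (limma adjusted p = 0.0212). Slc10a1, the bile acid importer of liver, fell by 0.39 ± 0.14 (limma adjusted p = 0.0238). Slc15a2 was thus further from 0 than any of the 53 transporters of the set. These lists were not tested as groups.

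**Figure D4:**
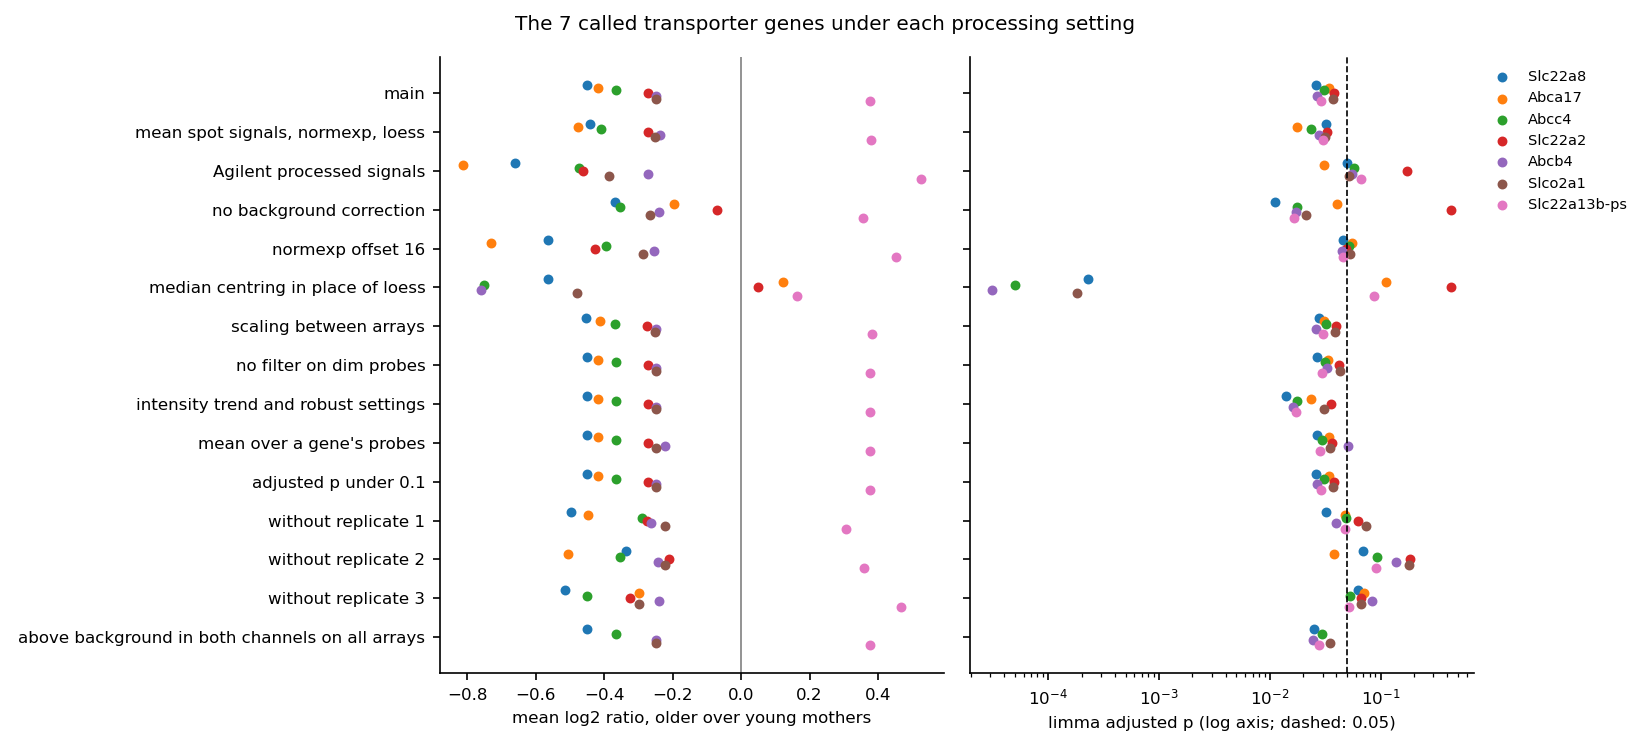
For the 7 called transporter genes, the mean log2 ratio of AMA over YMA (left) and the limma adjusted p on a log axis (right, dashed line at 0.05) are plotted for each way of processing the arrays. Abcb4, Abcc4, Slc22a8 and Slco2a1 stay below 0 and Slc22a13b-ps above 0 throughout. With median centring the median of all genes is itself -0.44, and Abca17 and Slc22a2 lie above 0. Without array 3 (replicate 3) all 7 lie to the right of the line.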

How the data were processed

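Total RNA from hippocampi of adult males was compared on 3 two-colour arrays, all on 1 slide and in 1 scan. Log2 ratios (Cy3 over Cy5) are the deposited values, and the authors' steps are not stated with them. They were matched to within 5.0e-10 by normexp with offset 50 and loess (span 0.3) on the median spot signals. The raw signals and backgrounds are intensity values from Agilent Feature Extraction 10.10.1.1, per the file headers. Each spot's flags for detection, saturation and outliers, per the file headers, are 0 or 1 (other unit).

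The deposited ratios were used as they are. Flagged spots were left out and spots of a probe averaged. A probe was measured if 1 and the same dye was well above background on every array, and a gene was read from its brightest measured probe. Ratios were tested with limma 3.58.1 in R 4.3.3 (lmFit and eBayes with an intercept, two-sided, 2 residual and 3.61 prior degrees of freedom), adjusted by Benjamini-Hochberg over 27629 probes. Where Cy3 was never above background, the fold was taken from the higher of the lowest detected Cy3 signal and the probe's own. It is an estimate and not a strict limit, and it is open to dye bias. The offset pulls dim probes towards 0.

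The fit was tested on simulated signals of 27629 probes for this comparison, with noise of the same size, the median SD, for every probe. Of 100 probes given a change of 0.5 (log2) 74 were called, and all 100 given a change of 1. The change of 0.5 was estimated at a median of 0.389. The SDs of the measured genes ran from 0.00064 to 1.97, so these shares do not give the power for a real gene. Per-array values are given for called genes, the next genes of each family by size, genes whose probes disagree, and a list of well-known members. Of each other list, up to 3 genes with the smallest p are given. Beyond that rule are Nr1h2, Nr1h3, Kcnj11, Kcne2 and a few remaining members, and 4 endothelial markers by their calls. Members, lists and rules were chosen with earlier results of these data known. A few genes of the set and lists are not reported here, and stayed in the fit across all probes. Symbols are those of the array files. Of the 107 probes, 100 had an accession that matched the RefSeq table. Alternatives were other signals, background corrections, dye and array scaling, filters, variance settings, the mean over probes, another threshold, and each replicate left out.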

Additional observations from a re-analysis of the deposited data

How the results depend on the processing

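With 1 gene higher and 6 lower as reported, the counts were 3 and 8 with mean spot signals, 0 and 3 with Agilent's processed signals, 4 and 11 without background correction, 1 and 3 with an offset of 16, 3 and 9 with a variance trend, 5 and 12 at an adjusted p under 0.1, and 4 and 6 without the filter on dim probes. The shares of all genes moved alongside, to 7.13% higher and 12.4% lower, 3.43% and 5.52%, 8.53% and 16.2%, 3.91% and 7%, 8.24% and 13.8%, 11.4% and 19.8%, and 5.38% and 7.61% in the same order. Leaving out 1 replicate gave 0 to 1 higher and 0 to 7 lower, with the median between -0.05 and -0.03. The shares of all genes then ran from 0.286% to 5.77% higher and from 0.113% to 9.78% lower. Median centring in place of loess gave 5 higher and 36 lower and a median of -0.48, beside -0.44 for all genes, of which 16.5% were higher and 69.6% lower. Under it, Abca17 (0.12) and Slc22a2 (0.048) turned positive, or 0.56 and 0.48 above the median of all genes, and Abca7 (-0.51), Abcb10 (-0.45), Abcc5 (-0.53), Abcf1 (-0.48), Abcg1 (-0.42), Slc22a17 (-0.85) and Slco3a1 (-0.43), not called in the reported values, turned negative; Slc22a4 (-0.13), Abcc9 (-0.03), Slc22a21 (0.02) and Abcc6 (0.05) changed sign without a call in either. The cause was not tested. Of the 7 called genes, all 7 kept their call with mean signals, scaling between arrays, no filter and the variance trend. Without background correction 6 kept it (not Slc22a2), as did 6 with the mean over probes (not Abcb4). The stricter filter kept 5, an offset of 16 kept 4 and Agilent's signals kept 1 (Abca17). With median centring Abcb4, Abcc4, Slc22a8 and Slco2a1 were also called lower, as were 69.6% of all genes. Relative to the median of all genes these 4 lay at -0.32, -0.31, -0.13 and -0.04. A kept lower call in that setting is thus no separate support. Each array gives the ratio of 2 pools, so the fit, with 1 value per array, already pairs the pools by array. Weak Cy3 signals limit what can be said of Abca17, Slc22a2 and Abcc6.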
